A study of Mus musculus with 6 samples.

Results

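The mitochondrial respiratory chain genes examined here were the protein-coding autosomal mouse genes whose symbols begin with Nduf, Sdh followed by A to D in lower case, Uqcr, Cox4 to Cox8 or Atp5. The gene table held 97 such genes of 21883 protein-coding genes. A peak belonged to a gene when it lay within 1000 bp of either end of that gene, which gave 109 peaks of 90823, at 88 of the 97 genes. The assay, ATAC-seq, reads chromatin accessibility from where a transposase inserts adapters, here in mouse intestinal organoids, cultures grown in Matrigel from isolated crypts. The 3 groups were organoids given AA (arachidonic acid) at 25 µM, organoids given PGE2 at 50 nM and organoids given vehicle, each for 3 days and each with 2 libraries. All groups shared a medium with EGF, Noggin, R-spondin, N-acetyl-L-cysteine, CHIR-99021 (an activator of Wnt signalling), Y-27632 (a kinase inhibitor), B27 and N2. The study's design text names the prostaglandin as a dimethyl form of PGE2, whereas the treatment protocol names PGE2, and the labels' word is kept here. The strain, age and sex of the mice and the make-up of the vehicle were not given in the sources used here. The labels do not say that the 2 libraries of a group came from separate cultures or animals, so the p-values measure the spread between these libraries, which may be technical.

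The respiratory chain passes electrons from NADH through complex I, or from succinate through complex II, to ubiquinone, then through complex III and cytochrome c to complex IV, where oxygen is reduced. Complexes I, III and IV pump protons out of the mitochondrial matrix, and complex V, the ATP synthase, uses the returning protons to make ATP. Most subunits are encoded by nuclear genes, many of whose promoters are known to be bound by NRF1, by GABP (an ETS factor) and by YY1. In the intestine, oxidative metabolism is known to support crypt stem cells, and arachidonic acid is the precursor of PGE2.

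The promoters of 5 genes described below are shown because their start-site peaks carried called changes. They run from 250 bases before to 50 bases after the listed start (RefSeq, GRCm38.p6), are printed 5′ to 3′ on the gene's own strand, and capitals mark the searched motifs on either strand. Cox6a1 (chr5:115348909-115349208, minus strand) encodes a subunit of complex IV, and Ndufab1 (chr7:122101799-122102098, minus strand) encodes the mitochondrial acyl carrier protein, which is also a complex I subunit. Uqcrfs1 (chr13:30545267-30545566, minus strand) encodes the Rieske iron-sulfur protein of complex III. Sdha (chr13:74350191-74350490, minus strand) encodes the flavoprotein of complex II, and Sdhaf3 (chr6:6955768-6956067, plus strand) encodes an assembly factor of complex II.
Cox6a1: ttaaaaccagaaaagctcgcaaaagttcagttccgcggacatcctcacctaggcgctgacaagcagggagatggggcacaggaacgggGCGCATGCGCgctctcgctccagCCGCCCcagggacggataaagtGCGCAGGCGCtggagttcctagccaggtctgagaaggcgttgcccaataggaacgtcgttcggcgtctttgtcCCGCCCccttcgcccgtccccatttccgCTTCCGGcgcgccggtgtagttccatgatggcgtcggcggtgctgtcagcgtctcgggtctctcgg
Ndufab1: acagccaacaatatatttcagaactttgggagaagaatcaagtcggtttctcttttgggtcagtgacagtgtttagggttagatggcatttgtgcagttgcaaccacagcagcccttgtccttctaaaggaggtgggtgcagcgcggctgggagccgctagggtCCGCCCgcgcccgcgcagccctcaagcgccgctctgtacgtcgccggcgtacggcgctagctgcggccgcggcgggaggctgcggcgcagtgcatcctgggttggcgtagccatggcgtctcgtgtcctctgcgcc
Uqcrfs1: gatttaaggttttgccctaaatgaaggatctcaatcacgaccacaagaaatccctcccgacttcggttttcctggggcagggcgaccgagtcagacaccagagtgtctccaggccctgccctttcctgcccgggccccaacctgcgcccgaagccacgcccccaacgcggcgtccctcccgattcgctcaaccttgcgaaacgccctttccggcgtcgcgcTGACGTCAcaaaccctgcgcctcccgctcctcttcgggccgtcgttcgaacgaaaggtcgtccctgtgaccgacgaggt
Sdha: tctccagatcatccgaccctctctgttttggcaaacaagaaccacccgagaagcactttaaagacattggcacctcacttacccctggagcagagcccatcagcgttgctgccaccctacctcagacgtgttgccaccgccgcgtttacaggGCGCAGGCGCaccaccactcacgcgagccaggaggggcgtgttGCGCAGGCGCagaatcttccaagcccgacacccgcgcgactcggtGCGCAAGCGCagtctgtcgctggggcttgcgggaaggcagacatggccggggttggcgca
Sdhaf3: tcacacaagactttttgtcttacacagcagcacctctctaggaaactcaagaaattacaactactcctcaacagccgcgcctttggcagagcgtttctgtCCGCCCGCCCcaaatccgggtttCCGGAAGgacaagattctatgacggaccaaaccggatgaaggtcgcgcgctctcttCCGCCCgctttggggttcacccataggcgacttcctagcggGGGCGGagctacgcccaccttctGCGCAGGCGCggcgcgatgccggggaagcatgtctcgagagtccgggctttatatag

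Each of these 5 windows lay wholly inside a peak. The motifs searched on both strands were the NRF1 palindrome, its core (the same letters with 1 inner base free), the ETS motif CCGGAAGT and its core CCGGAAG, the YY1 motif AAGATGGC, the CREB motif TGACGTCA and the GC box GGGCGG. Each palindrome or longer motif is also counted under its core. Of the 97 genes, 79 had a promoter in the sequence table. The NRF1 core occurred in 21 of these 79 (26.6%), against 7.17% of 17491 promoters of all protein-coding genes and 10.2% of the promoters of genes with a peak at an end. The YY1 motif occurred in 11 of the 79 (13.9%), against 3.57% of all promoters and 4.66% of those of genes with a peak at an end. The ETS core occurred in 22 (27.8%), against 12.9% and 17.9%, whereas its longer form occurred in 5 (6.33%), against 5.69% and 8.05%. The GC box occurred in 48.1% of the respiratory chain promoters, against 49.2% of all promoters and 65.7% of those of genes with a peak at an end. The median GC content was 58.7% in the respiratory chain promoters, against 56.3% in all promoters, and the median number of CG dinucleotides was 20 against 13. In the printed promoters, Cox6a1 held the NRF1 palindrome, a further NRF1 core, an ETS core and GC boxes, and Sdha held 3 NRF1 cores. Uqcrfs1 held the CREB motif, Ndufab1 held a GC box, and Sdhaf3 held an NRF1 core, an ETS core and GC boxes. The CREB motif was found in 4 of the 79 promoters (5.06%), those of Ndufa10, Ndufa11, Ndufb2 and Uqcrfs1. The background was 2.54% of all promoters and 3.47% of those of genes with a peak at an end. A match describes the letters in the window and is no measure of binding.

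The deposited counts summed to 12374232 to 14236985 per library over all peaks. Of the 109 respiratory chain peaks, 107 passed a filter on low counts, and 2 transcript-end peaks (of Atp5j2 and Atp5o) did not. Peaks within 1000 bp of an end of any protein-coding gene, called gene-end peaks here, held 35.3% and 35.8% of all counts with AA, 37.4% and 38.9% with PGE2, and 34.8% and 34.3% with vehicle. Of 7 epithelial marker genes, 6 had a gene-end peak, and their summed level was 765 to 782 CPM (counts scaled to a fixed library size by edgeR) with AA, 740 to 766 CPM with PGE2 and 792 to 793 CPM with vehicle, with no gene-end peak at Krt20. Of 7 stromal markers, 2 had a peak (27 to 28.9 CPM with AA, 29.1 to 30.9 CPM with PGE2, 30.6 to 30.8 CPM with vehicle), and of 5 endothelial markers, 1 had a peak (3.1 to 3.73 CPM with AA, 2.82 to 3.47 CPM with PGE2, 3.28 to 3.52 CPM with vehicle). Of 7 immune markers, 2 had a peak, summing to 23.3 to 28.7 CPM with AA, 26.9 to 33.9 CPM with PGE2 and 21.1 CPM with vehicle, while Ptprc, Cd3e, Csf1r and Lyz2 were among those with none. The gene-end share and the immune sum were higher, and the epithelial sum lower, in every treated library than in both vehicle libraries, and the stromal sum was lower with AA. The immune sum rests on the peaks of Itgam and Cd79a. Single epithelial peaks went both ways. With PGE2, log2 changes were 0.44 (Cdh1) and 0.27 (Cldn7), but −0.28 and −0.24 at the strong peaks of Krt8. With AA they were 0.28 (Cldn7) and −0.12 (Krt8). The part of these shifts in the results below was not tested.

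Respiratory chain peaks had a higher median level than gene-end peaks in general. The 107 tested peaks had a median of 22.5 CPM per kb. The median was 16.0 CPM per kb for the 16110 tested gene-end peaks and 8.76 CPM per kb for all 89347 tested peaks. At start sites, the 72 tested peaks had a median of 22.8 CPM per kb. The gene-end background pools starts and transcript ends, and none was computed for starts alone. The part of the site in these differences was thus not tested. The 18 peaks at transcript ends had a median of 17.3 CPM per kb, 4 peaks lay at both ends, and for 13 peaks no strand was listed. By level rather than length, the median start-site peak stood at the 88.7th percentile of all peaks and at the 68.9th percentile of gene-end peaks. Of the 109 peaks, 91 held a gene end, and 50 also lay within 1000 bp of an end of another protein-coding gene. For such a shared peak, the 2 genes cannot be told apart. Sharing is not marked at every peak below. Among others, the peaks of Ndufs8 (Aldh3b1), Ndufaf8 (Tepsin), Uqcrq (Gdf9) and Ndufa4 (Phf14) are shared. So are the start peaks of Ndufa11 (Vmac) and Uqcr10 (Zmat5) and the transcript-end peak of Ndufa13 (Yjefn3). The peak of Atp5g1, which encodes a form of the membrane c subunit of ATP synthase, had 108 CPM per kb, the peak of Ndufs8, an iron-sulfur subunit of complex I, 72.8 CPM per kb, and the start peak of Sdhb, the iron-sulfur subunit of complex II, 36.3 CPM per kb.

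**Figure D1:**
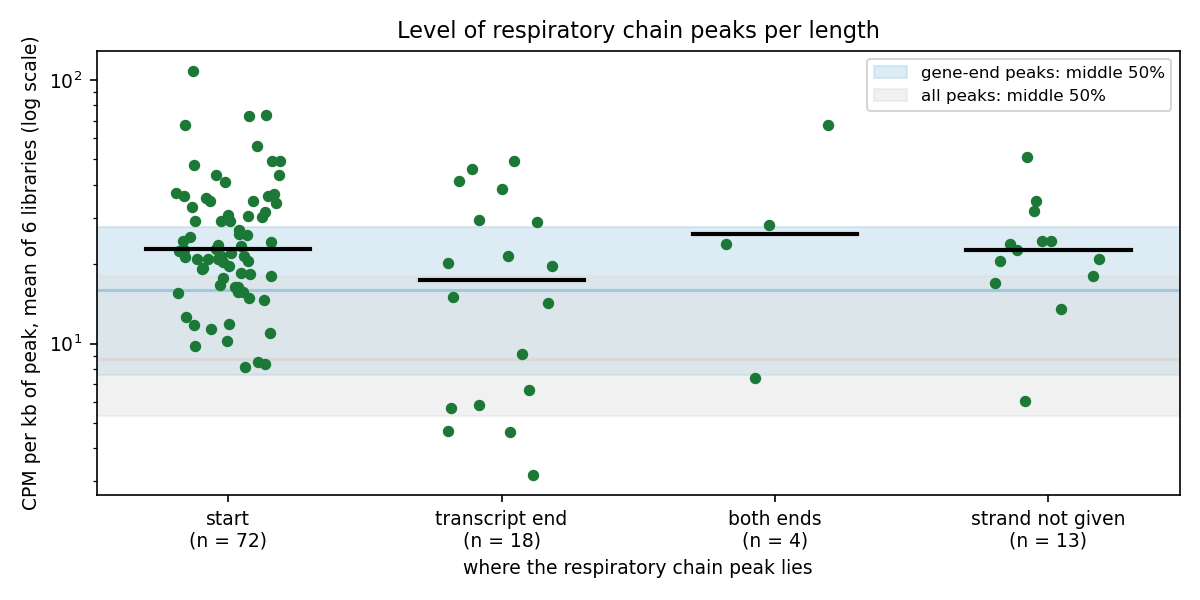
Level of each tested respiratory chain peak in CPM per kb (log axis, mean of 6 libraries) by where the peak lies; black bars are medians, and bands span the middle 50% of gene-end peaks and of all peaks, with a line at their medians. The median of the 72 start-site peaks, 22.8 CPM per kb, lies above the gene-end median of 16.0 CPM per kb, which pools starts and transcript ends. The transcript-end peaks spread the most widely.

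With AA, most respiratory chain peaks stayed within a small range of vehicle, and a few rose or fell. Of the 107 tested peaks, 12 were higher with AA and 3 lower at an adjusted p under 0.05 (edgeR's quasi-likelihood test, Benjamini-Hochberg adjustment over all 89347 peaks), 14.0% in all. The background was 30.5% of all peaks and 22.7% of gene-end peaks, so the respiratory chain share was below both. Split by direction, 11.2% of respiratory chain peaks were higher, against 16.7% of all peaks and 14.6% of gene-end peaks, and 2.8% were lower, against 13.8% and 8.11%. The median log2 change was 0.04, against 0.05 for gene-end peaks and −0.02 for all peaks, and single peaks ran from −0.74 to 0.85. No called peak changed 2-fold or more, and for 88 of the 107 peaks the 95% interval of the log2 change lay within 0.5 of 0. The 2 AA libraries did not overlap the 2 vehicle libraries at 60 peaks (56.1%), against 65.3% of all peaks and 62.5% of gene-end peaks.

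With PGE2, 25 of the 107 peaks were higher and 0 lower, 23.4% in all, against 24.9% of all peaks and 36.6% of gene-end peaks. At an unadjusted p under 0.05, 33 peaks were higher and 2 lower. That threshold was passed by 35 of the 107 peaks, 7670 of 16110 gene-end peaks and 31805 of all 89347 peaks. DESeq2 called 10 higher and 0 lower (9.17%), against 18.1% of gene-end peaks and 8.12% of all peaks. With edgeR, in the higher direction alone, the background was 14.3% of all peaks and 31.0% of gene-end peaks, and in the lower direction it was 10.6% and 5.58%. The 23.4% of respiratory chain peaks lay between those shares, so a count of higher peaks alone did not set these genes apart from gene ends in general. The median log2 change was 0.06, against 0.13 for gene-end peaks and −0.00 for all peaks, and single peaks ran from −0.42 to 1.42. The 2 PGE2 libraries did not overlap the 2 vehicle libraries at 70 peaks (65.4%), against 61.0% of all peaks and 68.4% of gene-end peaks. When libraries were scaled on gene-end peaks instead of all peaks, the direction of the PGE2 median turned: it was −0.11 for respiratory chain peaks, −0.04 for gene-end peaks and −0.17 for all peaks, with 14 peaks higher (13.1%) and 24 lower (22.4%). The background under that scaling was 21.3% higher and 19.7% lower among gene-end peaks, and 9.22% and 24.2% among all peaks. Of the 25 calls with PGE2, 13 were kept there, with log2 changes of 0.22 to 1.25, and 12 were lost, with log2 changes of 0.05 to 0.64 and adjusted p of 0.063 to 0.657. The lost ones were those of Atp5a1, Atp5j, Atp5o, Cox5b, Ndufa11, Ndufa6 (start), Ndufa13 (transcript end), Ndufaf6, Ndufb1, Ndufb9, Sdhaf1 and Uqcr10. Of the 15 AA calls, 11 were kept under that scaling, and those of Ndufaf8, Ndufb1, Sdha and Uqcrfs1 were lost, with log2 changes of 0.09 to 0.23. A change of scaling shifts the log2 changes of all peaks together, so it cannot alter the distance between 2 medians. With PGE2, the respiratory chain median lay 0.07 below the gene-end median and 0.06 above the median of all peaks. Leaving out 1 library can alter these distances, and they were then 0.06 to 0.07 below and 0.05 to 0.09 above. AA and PGE2 were each compared with the same 2 vehicle libraries.

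**Figure D2:**
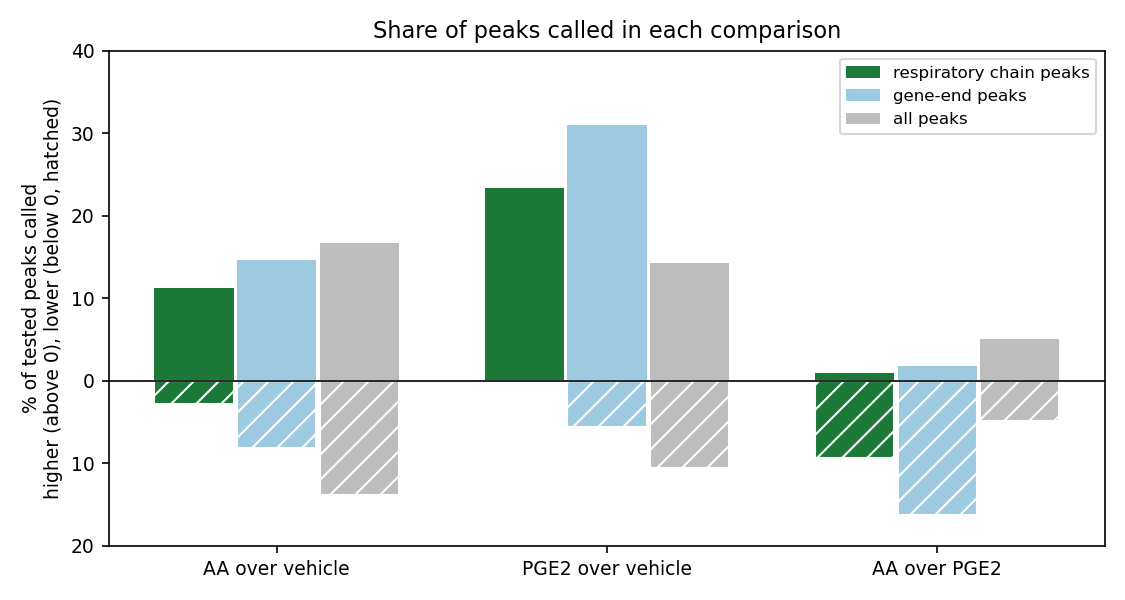
Share of tested peaks called higher (above 0) and lower (hatched, below 0) in each comparison, in percent, for the 107 respiratory chain peaks, the 16110 gene-end peaks and all 89347 peaks. With PGE2 over vehicle, 23.4% of respiratory chain peaks and 31.0% of gene-end peaks were higher; with AA over vehicle, the shares were 11.2% and 14.6%.

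**Figure D3:**
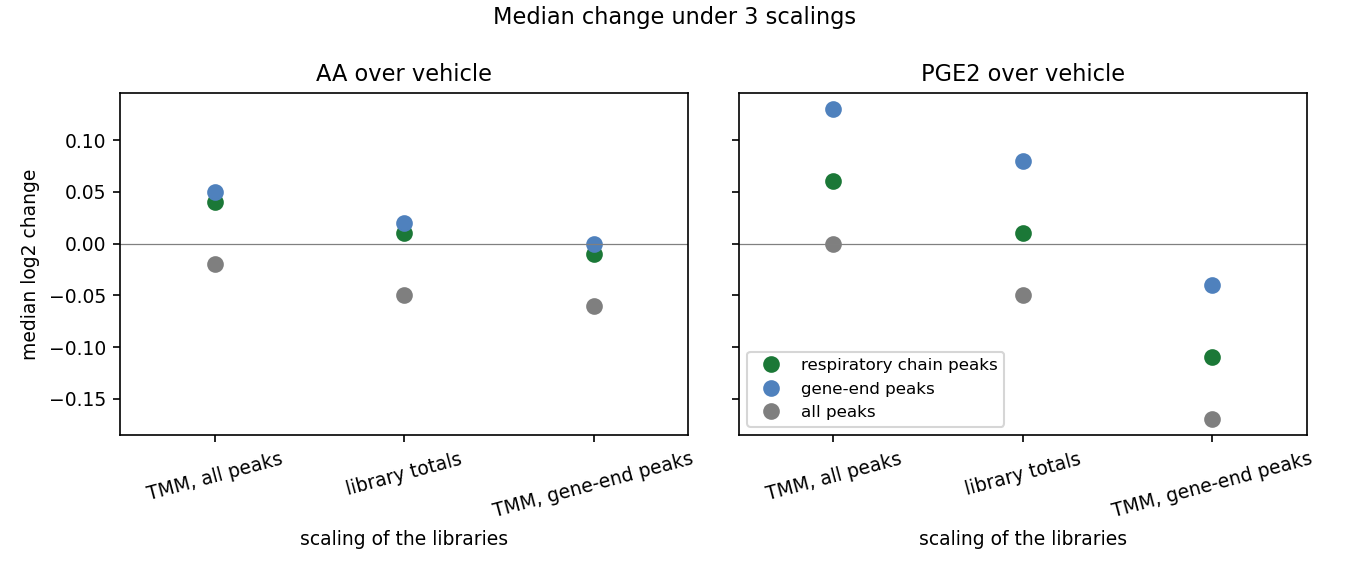
Median log2 change (vertical axis) of the respiratory chain peaks, gene-end peaks and all peaks under 3 ways of scaling the libraries (horizontal axis), for AA over vehicle and PGE2 over vehicle. The PGE2 median of respiratory chain peaks was 0.06 with TMM on all peaks and −0.11 with TMM on gene-end peaks. Its distance to the gene-end median, which a change of scaling cannot alter, was −0.07.

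**Figure D4:**
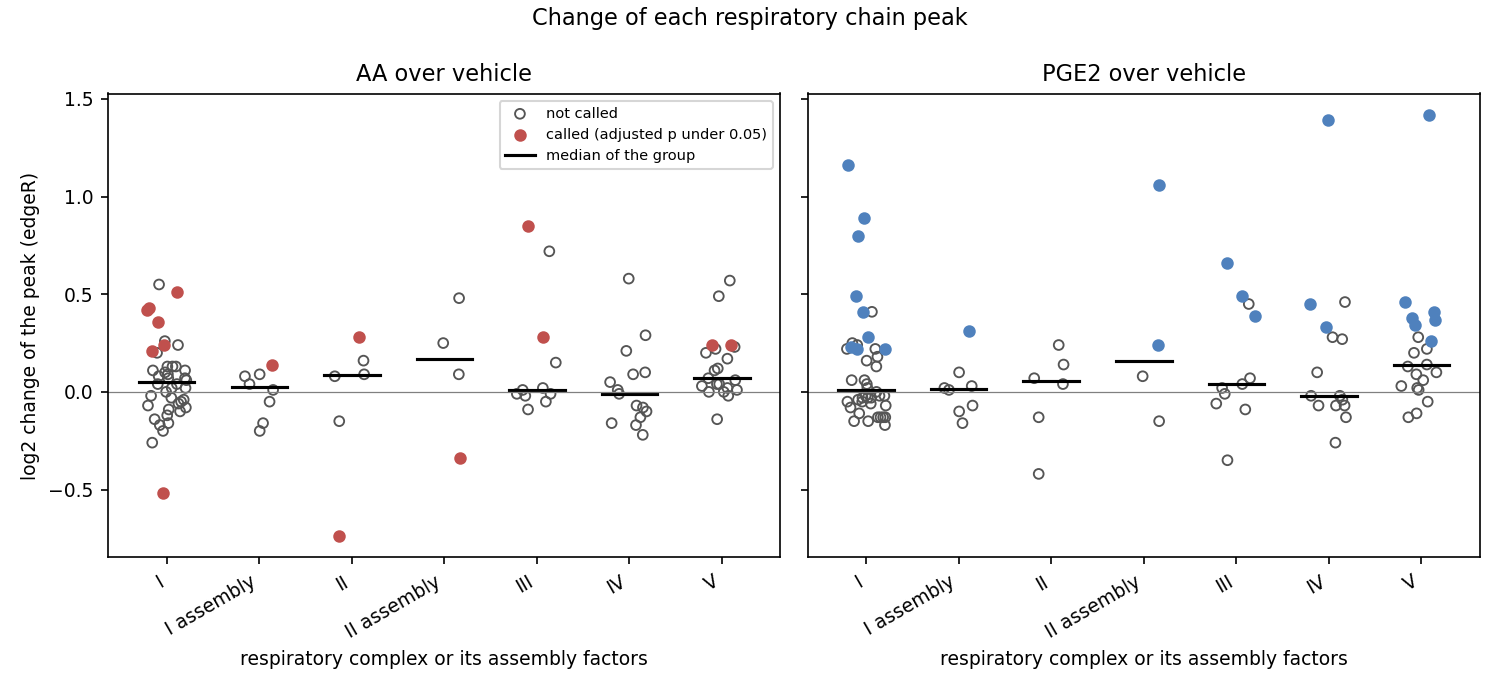
log2 change of each of the 107 tested peaks (vertical axis) by complex or assembly group (horizontal axis), for AA over vehicle and PGE2 over vehicle; filled points were called at an adjusted p under 0.05 and bars are group medians. The PGE2 panel holds 4 called peaks at 2-fold or more, at Ndufv2, Sdhaf2, Cox4i1 and Atp5d, and the AA panel holds none.

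Complex I, the NADH dehydrogenase, had 37 genes, 34 of them with a peak, and 42 tested peaks. With AA, 6 of the 42 were higher and 1 lower, and with PGE2 9 were higher. The shares higher were 14.3% and 21.4%, against 14.6% and 31.0% of gene-end peaks and 16.7% and 14.3% of all peaks. The share lower with AA was 2.38%, against 8.11% and 13.8%. The summed level over these peaks was 1131 and 1145 CPM with AA, 1162 and 1197 CPM with PGE2, and 1094 and 1087 CPM with vehicle. The treated libraries lay above both vehicle libraries, by 4.41% on average with AA and 8.15% with PGE2. The sum over all gene-end peaks was 5.1% above vehicle with AA and 13.8% with PGE2, so neither complex I value exceeded that background.

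The clearest member of complex I was Ndufab1 (start peak, chr7:122101161-122102198). Its level was 16.0 and 14.1 CPM with AA, 21.7 and 24.9 CPM with PGE2, and 13.1 and 12.1 CPM with vehicle. The 3 groups did not overlap, with PGE2 the highest. It rose 1.85-fold with PGE2 over vehicle (log2 0.89 ± 0.11 SE, adjusted p = 1.78e-08), and the AA change, log2 0.26 ± 0.11, did not pass (adjusted p = 0.0754). AA stood below PGE2 by a log2 change of −0.63 ± 0.10 (adjusted p = 6.54e-05). The Ndufab1 calls for PGE2 over vehicle and AA over PGE2 held under every refit run, including each library left out in turn.

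Ndufv2 encodes a subunit of the module that takes electrons from NADH. The peak at its transcript end (chr17:66076610-66077795), whose nearest base lies exactly 1000 bp from the gene, had 21.0 and 24.1 CPM with AA, 31.8 and 42.6 CPM with PGE2, and 17.5 and 15.8 CPM with vehicle. All 4 treated libraries lay above vehicle, and the 2 PGE2 libraries were far apart. The log2 change was 1.16 ± 0.13 with PGE2 (2.23-fold, adjusted p = 1.93e-05), a call that held under every refit run. With AA it was 0.43 ± 0.14 (adjusted p = 0.0325), a call that was lost without AA replicate 2 (adjusted p = 0.2), vehicle replicate 1 (0.0626) or vehicle replicate 2 (0.217). AA stood below PGE2 (log2 −0.73 ± 0.12, adjusted p = 0.00247), a call lost without AA replicate 1 (adjusted p = 0.0583). The start peak of Ndufv2 had 26.3 and 29.9 CPM with AA, 28.5 and 39.5 CPM with PGE2, and 25.2 and 26 CPM with vehicle. No call was made there for AA (log2 0.13 ± 0.14, adjusted p = 0.54) or PGE2 (log2 0.41 ± 0.14, adjusted p = 0.0616).

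Ndufa6, an accessory subunit, had 3 peaks that did not move alike. The transcript-end peak at chr15:82350010-82350382 had 18.4 and 17.3 CPM with AA, 11.6 and 13.5 CPM with PGE2, and 10.5 and 14.6 CPM with vehicle. Only the AA libraries stood apart, by a log2 change of 0.51 ± 0.12 over vehicle (adjusted p = 0.00124) and 0.51 ± 0.12 over PGE2 (adjusted p = 0.00509). The first of these calls was lost without vehicle replicate 1, where the change was 0.30 (adjusted p = 0.113), and the second without AA replicate 1 (adjusted p = 0.101). A second transcript-end peak, at chr15:82348885-82349196, was also higher with AA (log2 0.42 ± 0.11, adjusted p = 0.00248), a call lost without AA replicate 1 (adjusted p = 0.0641) or vehicle replicate 1 (0.0514). Both lie near an end of Smdt1 as well. The start peak of Ndufa6 had 44.7 and 44.1 CPM with AA, 50.5 and 52.2 CPM with PGE2, and 40.7 and 44.1 CPM with vehicle. It was higher with PGE2 (log2 0.28 ± 0.07, adjusted p = 0.00166; 0.0904 without vehicle replicate 1) and had a log2 change of 0.07 ± 0.07 with AA (adjusted p = 0.487).

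Ndufa13, also known as GRIM-19, is an accessory subunit needed for complex I assembly. Its start peak (chr8:69901287-69903780, shared with Tssk6) had 61.6 and 61.4 CPM with AA, 69.6 and 68.7 CPM with PGE2, and 51.7 and 52.2 CPM with vehicle. The groups were tight and apart, with log2 changes of 0.24 ± 0.06 with AA (adjusted p = 0.00152) and 0.41 ± 0.06 with PGE2 (adjusted p = 7.88e-07), and both calls held whichever library was left out. The weak transcript-end peak had 2.11 and 2.28 CPM with AA, 2.67 and 2.55 CPM with PGE2, and 1.38 and 1.6 CPM with vehicle. Its PGE2 call (log2 0.80 ± 0.29, adjusted p = 0.0333) was lost without PGE2 replicate 1 (adjusted p = 0.12), PGE2 replicate 2 (0.0837), vehicle replicate 1 (0.183) or vehicle replicate 2 (0.0834).

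Ndufb9, Ndufb2 and Ndufb10 are accessory subunits of the membrane arm. The Ndufb9 peak (chr15:58933098-58934108, shared with Tatdn1) had 36.9 and 34.7 CPM with AA, 32.0 and 32.9 CPM with PGE2, and 26.7 and 29.0 CPM with vehicle. AA was the highest group, with a log2 change of 0.36 ± 0.08 (adjusted p = 0.000383) that held whichever library was left out. Its PGE2 change of 0.22 ± 0.08 (adjusted p = 0.0395) was lost without AA replicate 1 (adjusted p = 0.051), PGE2 replicate 2 (0.131), vehicle replicate 1 (0.327) or vehicle replicate 2 (0.0649). The Ndufb2 start peak had 25.9 and 28 CPM with AA, 32.7 and 33.1 CPM with PGE2, and 24.7 and 22.1 CPM with vehicle. It rose with PGE2 (log2 0.49 ± 0.09, adjusted p = 2.29e-05), also with any library left out.

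Ndufb10 moved the other way with AA. Its transcript-end peak (chr17:24722485-24722980, shared with Rps2) had 8.37 and 6.85 CPM with AA, 11 and 10.3 CPM with PGE2, and 11.1 and 10.9 CPM with vehicle. It was lower with AA than with vehicle (log2 −0.52 ± 0.13, adjusted p = 0.00218), a call lost without AA replicate 2 (log2 −0.39, adjusted p = 0.0719). It was also lower with AA than with PGE2 (log2 −0.48 ± 0.13, adjusted p = 0.0166), a call lost without AA replicate 2 (adjusted p = 0.227) or PGE2 replicate 1 (0.0725). The start peak of Ndufb10 had no call, with log2 changes of −0.14 ± 0.08 with AA and −0.15 ± 0.08 with PGE2.

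The catalytic and iron-sulfur subunits of complex I were mostly without calls. The Ndufs8 start peak, the highest of the complex, had 66.8 and 67.3 CPM with AA, 62.6 and 65.7 CPM with PGE2, and 62.5 and 63.6 CPM with vehicle. Its log2 change was 0.09 ± 0.06 with AA and 0.02 ± 0.06 with PGE2, with 95% intervals of −0.03 to 0.21 and −0.09 to 0.14. The peaks of Ndufs1, Ndufs3, Ndufs7 and Ndufv1 passed in no comparison. Those of Ndufs4, Ndufs5, Ndufs6 and Ndufv3, which are accessory subunits despite their symbols, passed in none either. Among the accessory subunits, Ndufb1 had a start peak (shared with Cpsf2) with a log2 change of 0.21 ± 0.07 with AA (adjusted p = 0.0217) and 0.23 ± 0.07 with PGE2 (adjusted p = 0.0151). The AA call was lost without AA replicate 2 (adjusted p = 0.153) or vehicle replicate 2 (0.241), and the PGE2 call without vehicle replicate 2 (0.214). The Ndufa11 start peak was higher with PGE2 (log2 0.22 ± 0.06, adjusted p = 0.00851), a call lost without PGE2 replicate 2 (adjusted p = 0.0545) or vehicle replicate 1 (0.151), and with gene-end scaling (log2 0.05, adjusted p = 0.564).

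All 8 Ndufaf genes, which encode assembly factors of complex I, had 1 peak each. With AA 1 of 8 was higher, that of Ndufaf8 (log2 0.14 ± 0.06, adjusted p = 0.0451), a call lost without AA replicate 1 (adjusted p = 0.138), AA replicate 2 (0.127), vehicle replicate 1 (0.0845) or vehicle replicate 2 (0.286). With PGE2 1 of 8 was higher, that of Ndufaf6. Each count was 12.5%, against 14.6% of gene-end peaks with AA and 31.0% with PGE2. Among all peaks the shares higher were 16.7% and 14.3%. The Ndufaf6 peak had 13.7 and 14.5 CPM with AA, 15.6 and 20.4 CPM with PGE2, and 14.8 and 14.3 CPM with vehicle. Its PGE2 change was 0.31 ± 0.11 (adjusted p = 0.0413), and its change with AA against PGE2 was −0.35 ± 0.11 (adjusted p = 0.0387). PGE2 replicate 2 stood well above the other libraries, and both calls were lost without PGE2 replicate 2, either AA library or either vehicle library (adjusted p = 0.0547 to 0.662 for PGE2 over vehicle and 0.0676 to 0.601 for AA over PGE2). The highest peak, that of Ndufaf3 (shared with Dalrd3), had 86.4 and 81.4 CPM with AA, 79.6 and 78.9 CPM with PGE2, and 88.2 and 78.1 CPM with vehicle. The vehicle libraries spanned those of AA and PGE2, and no comparison passed.

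Complex II, succinate dehydrogenase, also works in the tricarboxylic acid cycle, and its 4 genes had 6 tested peaks. With AA 1 was higher and 1 lower, and with PGE2 0 passed (edgeR), 2 at an unadjusted p under 0.05 and 0 with DESeq2. Each AA count was 16.7% of the 6 peaks. Of gene-end peaks, 14.6% were higher and 8.11% lower with AA, and of all peaks 16.7% and 13.8%. With PGE2, edgeR called 36.6% of gene-end peaks and 24.9% of all peaks. The Sdha start peak (shared with Ccdc127) had 17.0 and 22.1 CPM with AA, 19.2 and 18.5 CPM with PGE2, and 15.8 and 16.2 CPM with vehicle. The AA libraries were far apart, and the log2 change of 0.28 ± 0.11 (adjusted p = 0.0452) was 0.09 without AA replicate 2 (adjusted p = 0.685). This call was also lost without vehicle replicate 1 (adjusted p = 0.188) or vehicle replicate 2 (0.141). With PGE2 the log2 change was 0.24 ± 0.11 (adjusted p = 0.105).

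The 2 peaks of Sdhb differed. The start peak had 38.2 and 38.8 CPM with AA, 35.8 and 35.2 CPM with PGE2, and 37.6 and 31.5 CPM with vehicle, and it passed in no comparison. The transcript-end peak (chr4:140977752-140978392) had 2.81 and 2.77 CPM with AA, 4.12 and 2.85 CPM with PGE2, and 4.82 and 4.50 CPM with vehicle. It was lower with AA (log2 −0.74 ± 0.21, adjusted p = 0.00642), and without vehicle replicate 1 the change was −0.68 (adjusted p = 0.064). The peaks of Sdhc and Sdhd, the membrane anchors, passed in no comparison.

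The assembly factors of complex II had 4 peaks, of which 1 was lower with AA and 2 were higher with PGE2. These were 25.0% and 50.0%, against 8.11% of gene-end peaks lower with AA and 31.0% higher with PGE2. Among all peaks the shares were 13.8% and 14.3%. Sdhaf2, which is needed to attach FAD to Sdha, had a start peak (shared with Cpsf7) with 21.5 and 23.7 CPM with AA, 26.9 and 40.7 CPM with PGE2, and 16.7 and 15.6 CPM with vehicle. Every treated library lay above vehicle, but the PGE2 libraries differed widely. The PGE2 change was 1.06 ± 0.23 (2.09-fold, adjusted p = 0.0341), and the AA change of 0.48 ± 0.25 did not pass (adjusted p = 0.229). The PGE2 call was lost without AA replicate 1 (adjusted p = 0.0826), AA replicate 2 (0.0802), vehicle replicate 1 (0.116) or vehicle replicate 2 (0.154). Sdhaf1 was higher with PGE2 (log2 0.24 ± 0.07, adjusted p = 0.00435), a call lost without PGE2 replicate 2 (adjusted p = 0.113) or vehicle replicate 2 (0.0877), and with gene-end scaling (log2 0.08, adjusted p = 0.396).

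The start peak of Sdhaf3 had 18.9 and 19.1 CPM with AA, 21.7 and 21.8 CPM with PGE2, and 23.4 and 24.8 CPM with vehicle. The 3 groups did not overlap, with AA the lowest. The log2 change was −0.34 ± 0.09 with AA (adjusted p = 0.00369; −0.30, 0.0671 without vehicle replicate 2) and −0.15 ± 0.09 with PGE2 (adjusted p = 0.248).

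Complex III, the cytochrome bc1 complex, had 8 genes and 11 tested peaks, of which 2 were higher with AA and 3 with PGE2. These were 18.2% and 27.3%, against 14.6% and 31.0% of gene-end peaks and 16.7% and 14.3% of all peaks. The Rieske protein gene Uqcrfs1, whose start peak covers the promoter printed above, had 21.4 and 18.8 CPM with AA, 23.4 and 23.2 CPM with PGE2, and 16.5 and 16.8 CPM with vehicle. Every treated library lay above both vehicle libraries. The PGE2 change of 0.49 ± 0.10 (1.4-fold, adjusted p = 0.000179) held under every refit run. The AA change of 0.28 ± 0.10 (adjusted p = 0.0311) was lost without AA replicate 1 (log2 0.18, adjusted p = 0.33), vehicle replicate 1 (0.135) or vehicle replicate 2 (0.107).

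Uqcrh, the hinge protein that helps complex III meet cytochrome c, had a start peak (shared with Lrrc41) with 60.0 and 60.0 CPM with AA, 64.8 and 76.2 CPM with PGE2, and 51.6 and 56.2 CPM with vehicle. It rose with PGE2 (log2 0.39 ± 0.07, adjusted p = 2.82e-05), also under every refit run, and the AA change of 0.15 ± 0.07 did not pass (adjusted p = 0.0805). The small subunit gene Uqcr10 had its change at the transcript end (chr11:4700860-4701162), with 6.19 and 4.49 CPM with AA, 4.27 and 5.17 CPM with PGE2, and 2.83 and 3.13 CPM with vehicle. The treated libraries did not overlap vehicle, and the log2 change was 0.85 ± 0.20 with AA (1.81-fold, adjusted p = 0.00105) and 0.66 ± 0.21 with PGE2 (adjusted p = 0.0169). The AA call was lost without AA replicate 1 (log2 0.60, adjusted p = 0.0964). For PGE2, leaving out PGE2 replicate 2 (adjusted p = 0.156), vehicle replicate 1 (0.129) or vehicle replicate 2 (0.0626) ended the call. The start peak of Uqcr10 had 42.4 and 39.5 CPM with AA, 40.4 and 38.9 CPM with PGE2, and 41.4 and 41.2 CPM with vehicle, with 95% intervals of the log2 change of −0.15 to 0.13 for AA and −0.20 to 0.09 for PGE2. The core proteins Uqcrc1 and Uqcrc2 and the small subunits Uqcrb, Uqcr11 and Uqcrq passed in no comparison, and Uqcrq, with the highest level of the complex, had 80.5 and 83.9 CPM with AA, 81.8 and 84.0 CPM with PGE2, and 78.5 and 85.1 CPM with vehicle.

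Complex IV, cytochrome c oxidase, had 19 genes by symbol, counting Ndufa4 and Ndufa4l2, and 15 tested peaks at 13 genes. With AA 0 of 15 passed (edgeR), 0 at an unadjusted p under 0.05 and 0 with DESeq2, and with PGE2 3 were higher. The PGE2 count was 20.0%, against 31.0% of gene-end peaks and 14.3% of all peaks. For AA, edgeR called 22.7% of gene-end peaks and 30.5% of all peaks. The summed level was 306 and 304 CPM with AA, 318 and 342 CPM with PGE2, and 303 and 305 CPM with vehicle. AA thus lay within 0.341% of vehicle, and PGE2 was 8.53% above it, against 5.1% and 13.8% for all gene-end peaks. PGE2 replicate 2 was the highest library.

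Cox4i1 encodes the widely expressed form of subunit IV. Its peak (chr8:120667658-120668993, shared with Emc8 and Gm27021) had 14.6 and 17.0 CPM with AA, 21.8 and 33.6 CPM with PGE2, and 10.9 and 10.2 CPM with vehicle. Every treated library lay above vehicle, and PGE2 replicate 2 was far above PGE2 replicate 1. The PGE2 change was 1.39 ± 0.25 (2.62-fold, adjusted p = 0.0131), and the call was lost without vehicle replicate 1 (adjusted p = 0.0743) or vehicle replicate 2 (0.0978), although the change stayed at 1.43 and 1.35. The AA change of 0.58 ± 0.27 did not pass (adjusted p = 0.18), and the difference of AA from PGE2 was −0.81 ± 0.23 (adjusted p = 0.104).

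Cox6a1, the form of subunit VIa found in most tissues, had 2 peaks. The one over the printed promoter (chr5:115348545-115349561) had 17.3 and 16.6 CPM with AA, 19.4 and 25.3 CPM with PGE2, and 15.7 and 17.1 CPM with vehicle. PGE2 replicate 2 stood above all other libraries. The log2 change was 0.45 ± 0.11 with PGE2 (adjusted p = 0.00176), 0.05 ± 0.11 with AA (adjusted p = 0.767) and −0.39 ± 0.11 with AA against PGE2 (adjusted p = 0.0135). Without PGE2 replicate 2 the PGE2 change was 0.24 (adjusted p = 0.151), and that of AA against PGE2 was −0.19 (adjusted p = 0.405). The PGE2 call was also lost without vehicle replicate 1 (adjusted p = 0.0567), and the AA against PGE2 call without AA replicate 1 (0.102) or AA replicate 2 (0.129). The other Cox6a1 peak had 10.4 and 10.7 CPM with AA, 11.4 and 12.7 CPM with PGE2, and 9.95 and 9.92 CPM with vehicle, and passed in no comparison. The third peak called with PGE2 was that of Cox5b (log2 0.33 ± 0.10, adjusted p = 0.0154), lost without PGE2 replicate 1 (adjusted p = 0.0904) or vehicle replicate 1 (0.185).

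Several subunits of complex IV have a form known mainly from muscle or testis beside a widely expressed one. No peak lay within 1000 bp of an end of Cox4i2, Cox6a2, Cox7b2, Cox8b or Cox8c, of which Cox6a2 and Cox8b are known as forms of heart and skeletal muscle, and Cox4i2 as a lung form that responds to hypoxia. Their nearest peaks lay 1323 bp (Cox4i2), 1771 bp (Cox6a2), 109380 bp (Cox7b2), 2617 bp (Cox8b) and 20245 bp (Cox8c) away. Cox7a1, known as the heart and muscle form of subunit VIIa, had a start peak with 34.7 and 35.5 CPM with AA, 30.8 and 31.6 CPM with PGE2, and 33.0 and 32.3 CPM with vehicle. This peak was thus open in all 6 libraries, and no comparison passed. Its transcript-end peak, shared with Capns1, had 11.5 and 11.3 CPM with AA, 10.9 and 10.6 CPM with PGE2, and 13.9 and 11.9 CPM with vehicle. Cox6b2, known as a testis form, had a peak at both ends (shared with Fam71e2) with 11 and 11.4 CPM with AA, 11.1 and 10.7 CPM with PGE2, and 13.2 and 10.8 CPM with vehicle. Its widely expressed partner Cox6b1 had 17.0 and 15.6 CPM with AA, 16.1 and 16.5 CPM with PGE2, and 16.4 and 17.9 CPM with vehicle. Neither passed in any comparison. Cox8a, the widely expressed form of subunit VIII and the highest peak of the complex, had 49.7 and 51.1 CPM with AA, 52.8 and 53.9 CPM with PGE2, and 49.5 and 50.2 CPM with vehicle. Ndufa4, now known as a subunit of complex IV, had 24.8 and 24.1 CPM with AA, 24.3 and 25.8 CPM with PGE2, and 26 and 25.6 CPM with vehicle. Ndufa4l2, a paralogue known as a hypoxia target, had a peak (shared with Stac3) with 23.4 and 21.1 CPM with AA, 25.3 and 23.7 CPM with PGE2, and 23.5 and 26.2 CPM with vehicle. The AA libraries lay below every PGE2 and vehicle library, PGE2 and vehicle overlapped, and no comparison passed.

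Complex V had 17 genes, all with a peak, and 21 tested peaks, of which 2 were higher with AA and 7 with PGE2. These were 9.52% and 33.3%, against 14.6% and 31.0% of gene-end peaks and 16.7% and 14.3% of all peaks. The log2 change over vehicle was above 0 at 18 of the 21 peaks with AA and at 18 with PGE2. Among the 16110 gene-end peaks it was above 0 at 9381 with AA and at 10528 with PGE2. For AA over PGE2, 6 of the 21 peaks were above 0 and 15 below, against 4949 and 11161 of the gene-end peaks. The summed level was 712 and 730 CPM with AA, 733 and 766 CPM with PGE2, and 670 and 676 CPM with vehicle. Every treated library lay above both vehicle libraries, by 7.11% on average with AA and 11.4% with PGE2, against 5.1% and 13.8% for all gene-end peaks. Whether complex V differed from gene ends in general was not tested.

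Atp5g2, Atp5g1 and Atp5g3 encode the same mature c subunit with different import signals. The Atp5g2 start peak had 44.4 and 48.4 CPM with AA, 49.4 and 52.8 CPM with PGE2, and 39.7 and 38.7 CPM with vehicle. Both treatments stood above vehicle, with log2 changes of 0.24 ± 0.07 for AA (adjusted p = 0.00648) and 0.38 ± 0.07 for PGE2 (adjusted p = 3.6e-05). The PGE2 call held under every refit run, and the AA call was lost without AA replicate 2 (adjusted p = 0.132) or vehicle replicate 2 (0.0802). The start peak of Atp5g3 had 16.1 and 20.6 CPM with AA, 19.8 and 23.7 CPM with PGE2, and 15.5 and 16.1 CPM with vehicle. It rose with PGE2 (log2 0.46 ± 0.11, adjusted p = 0.00193), whichever library was left out, but DESeq2 did not make that call (adjusted p = 0.0823). The AA change of 0.20 ± 0.11 did not pass (adjusted p = 0.178). The Atp5g1 peak had 93.3 and 94.9 CPM with AA, 93.4 and 94.8 CPM with PGE2, and 90.3 and 94.1 CPM with vehicle, and the 95% interval of its log2 change was −0.08 to 0.13 in both comparisons with vehicle.

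Atp5j encodes coupling factor 6 of the stalk, and its start peak (shared with Gabpa, which encodes the DNA-binding subunit of GABP) had 78.4 and 78.0 CPM with AA, 76.7 and 81.4 CPM with PGE2, and 64.8 and 67.6 CPM with vehicle. Treated and vehicle libraries did not overlap. The log2 change was 0.24 ± 0.06 with AA (adjusted p = 0.000929) and 0.26 ± 0.06 with PGE2 (adjusted p = 0.000584), and both calls held whichever library was left out. With scaling on gene-end peaks the PGE2 call was lost, and DESeq2 made neither call (adjusted p = 0.104 for AA and 0.102 for PGE2). Atp5mpl, a small membrane subunit, was higher with PGE2 (log2 0.41 ± 0.09, adjusted p = 0.000558), whichever library was left out. DESeq2 did not make this call (adjusted p = 0.0586). The AA change of Atp5mpl, 0.23 ± 0.09, did not pass (adjusted p = 0.0514 by edgeR). Atp5o, a stalk subunit, was higher with PGE2 at its start (log2 0.34 ± 0.10, adjusted p = 0.0073; 0.131 without vehicle replicate 1).

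Of the catalytic head, Atp5a1 encodes the alpha subunit, and its peak (shared with Haus1) had 24.3 and 27.1 CPM with AA, 29.1 and 34.3 CPM with PGE2, and 24.8 and 24.3 CPM with vehicle. The PGE2 libraries were the highest. It rose with PGE2 (log2 0.37 ± 0.09, adjusted p = 0.0016), a change of 0.24 without PGE2 replicate 2 (adjusted p = 0.0688). AA was below PGE2 (log2 −0.30 ± 0.09, adjusted p = 0.0203), a call lost without PGE2 replicate 2 (log2 −0.18, adjusted p = 0.309) or AA replicate 1 (log2 −0.21, adjusted p = 0.312). The peaks of Atp5b, the catalytic beta subunit, passed in no comparison, with 53.7 and 61.2 CPM with AA, 60.1 and 58.8 CPM with PGE2, and 55.4 and 53.5 CPM with vehicle at the start.

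Atp5d, the delta subunit of the head, had the widest log2 change of all 107 peaks with PGE2. Its peak near the listed end of the gene (chr10:80138998-80139480, shared with Cbarp) had 4.29 and 3.83 CPM with AA, 5.11 and 9.65 CPM with PGE2, and 3.14 and 2.37 CPM with vehicle. PGE2 replicate 2 lay further from PGE2 replicate 1 than PGE2 replicate 1 did from any AA or vehicle library. The PGE2 change was 1.42 ± 0.31 (2.67-fold, adjusted p = 0.00876), a call lost without AA replicate 1 (adjusted p = 0.053), AA replicate 2 (0.0541) or vehicle replicate 2 (log2 1.23, 0.12). The change was 0.89 without PGE2 replicate 2 and 1.81 without PGE2 replicate 1. The AA change of 0.57 ± 0.36 did not pass (adjusted p = 0.277). The peak over the RefSeq start sites of Atp5d lies further than 1000 bp inside the gene's outer end and so outside the membership rule. It had 37.2 and 37.8 CPM with AA, 42.4 and 35.6 CPM with PGE2, and 32.5 and 31.9 CPM with vehicle. By edgeR it was higher with AA (log2 0.22 ± 0.08, adjusted p = 0.0305) and with PGE2 (log2 0.28 ± 0.08, adjusted p = 0.00685).

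**Figure D5:**
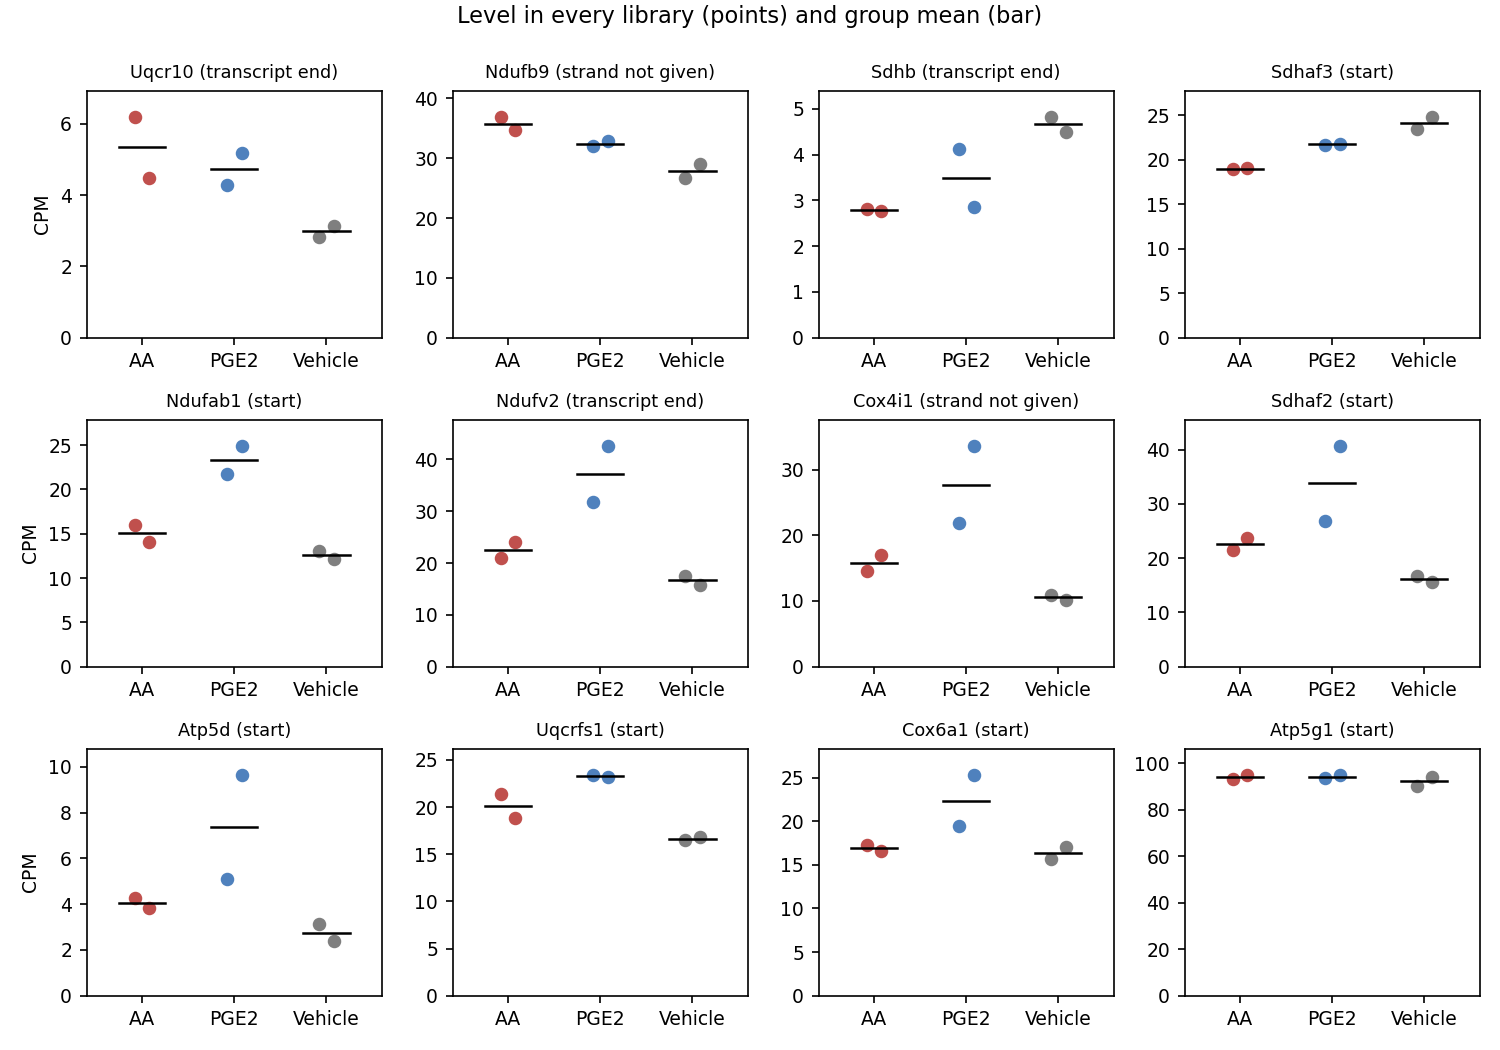
Level in CPM (vertical axis, from 0) of 12 respiratory chain peaks in each library; points are the 2 libraries of AA, PGE2 and vehicle, and bars are group means. Ndufab1 stands apart with PGE2, at 21.7 and 24.9 CPM, Sdhb and Sdhaf3 are lowest with AA, the 2 PGE2 libraries of Cox4i1, Sdhaf2 and Atp5d lie far apart, and Atp5g1 is level across the groups.

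AA and PGE2 were compared directly at the doses given, 25 µM and 50 nM, so that compound and dose cannot be told apart. Of the 107 peaks, 1 was higher with AA (0.935%), against 5.06% of all peaks and 1.77% of gene-end peaks, and 10 were lower (9.35%), against 4.88% of all peaks and 16.3% of gene-end peaks. The share lower with AA thus lay between the backgrounds. The median log2 change was −0.02, against −0.12 for gene-end peaks and −0.01 for all peaks. With gene-end scaling the median turned to 0.10, with 12 peaks higher and 5 lower (11.2% and 4.67%). The background was then 8.61% and 11.2% of gene-end peaks, and 13.2% and 3.03% of all peaks. DESeq2 called 0 higher and 2 lower (1.83%), against 1.87% of gene-end peaks and 0.641% of all peaks. The peak higher with AA was the Ndufa6 transcript-end peak, and those lower with AA were at Atp5a1, Cox6a1, Ndufa10, Ndufa6 (start), Ndufab1, Ndufaf6, Ndufb10, Ndufb2, Ndufv2 and Uqcrh. Of these 11 calls, that of Ndufab1 alone was kept whichever library was left out, and 3 were kept with gene-end scaling, those of Ndufab1, Ndufv2 and the Ndufa6 transcript-end peak. The median was −0.03 without AA replicate 1 and −0.04 without PGE2 replicate 1, against −0.10 and −0.13 for gene-end peaks. The interval of the difference lay within 0.5 of 0 on the log2 scale for 88 of the 107 peaks.

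The libraries within the PGE2 group also differed. Of the 25 peaks called higher with PGE2, 21 (84.0%) had a higher level in PGE2 replicate 2 than in PGE2 replicate 1, against 64.5% of the 107 peaks, 65.0% of gene-end peaks and 53.4% of all peaks. Of the 25 calls, 10 were kept whichever library was left out: Atp5mpl, Uqcrfs1, Atp5g2, Atp5j, Ndufv2, Atp5g3, Uqcrh, Ndufb2, Ndufab1 and the start peak of Ndufa13. Of the 15 AA calls, 3 were so kept, those of Ndufb9, Atp5j and the start peak of Ndufa13, and DESeq2 called none of the 15. Of the 25 PGE2 calls, DESeq2 kept 10, which did not include those of Atp5mpl (adjusted p = 0.0586), Atp5j (0.102) and Atp5g3 (0.0823). Leaving out 1 library moved the number of calls among gene-end peaks as well as among these. With PGE2 the median log2 change was then 0.04 to 0.08, against 0.10 to 0.14 for gene-end peaks. With AA it was 0.04 to 0.07 for both.

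Of the 9 genes without a peak near an end, Cox7a2, the widely expressed form of subunit VIIa, had a peak over its RefSeq start site that lay 4145 bp from the listed gene end, with 31.6 and 34.6 CPM with AA, 30.9 and 32.8 CPM with PGE2, and 34.6 and 30.6 CPM with vehicle. The copies Ndufb4b and Ndufb4c had no peak nearer than 9401 and 17261 bp. Cox5a, which encodes subunit Va, entered the set by its weak transcript-end peak (log2 0.46 ± 0.31 with PGE2, adjusted p = 0.312). The peak over its RefSeq start site lay outside the rule and had 17.3 and 19.9 CPM with AA, 23.0 and 34.3 CPM with PGE2, and 12.7 and 12.1 CPM with vehicle. Every treated library lay above vehicle there, and the PGE2 change was 1.21 ± 0.21 (adjusted p = 0.00728). At the 1000 bp limit, the outermost members were at 943 bp (Ndufa6), 992 bp (Cox7a1) and 1000 bp (Ndufv2), with PGE2 log2 changes of 0.22, −0.26 and 1.16. The nearest peaks outside were at 1025 bp (Cox4i1) and 1032 bp (Ndufb4), with PGE2 log2 changes of 0.17 and 0.25.

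Other genes of the pathway were counted by lists of names. Of 21 gene-end peaks of tricarboxylic acid cycle genes, 10 were higher and 1 lower with AA (52.4%), and 11 higher with PGE2 (52.4%), with median log2 changes of 0.17 and 0.23. Among all gene-end peaks, 22.7% were called with AA and 36.6% with PGE2, with medians of 0.05 and 0.13. The peak of Ogdh, a subunit of the 2-oxoglutarate dehydrogenase complex, had 56.6 and 59.6 CPM with AA, 70.5 and 73.2 CPM with PGE2, and 46.9 and 45.5 CPM with vehicle (log2 0.33 ± 0.06 for AA, adjusted p = 6.14e-05; 0.64 ± 0.06 for PGE2, adjusted p = 1.16e-10). The 3 groups did not overlap, and the same held for Cs, citrate synthase, with 66.9 and 67.6 CPM with AA, 74.3 and 78.6 CPM with PGE2, and 57.1 and 52.7 CPM with vehicle. Of 26 peaks of cytochrome c, ubiquinone and carrier genes, 9 were higher and 3 lower with AA (46.2%), and 11 higher and 4 lower with PGE2 (57.7%). Vdac1, the main outer-membrane channel, rose with both AA (log2 0.32 ± 0.07, adjusted p = 0.000182) and PGE2 (log2 0.50 ± 0.07, adjusted p = 1.15e-07), whichever library was left out. Coq8a, which acts in ubiquinone synthesis, had 57.5 and 60.5 CPM with AA, 61.6 and 61.4 CPM with PGE2, and 70.1 and 69.2 CPM with vehicle. It fell with AA (log2 −0.24 ± 0.06, adjusted p = 0.00135), a call lost without AA replicate 1 (adjusted p = 0.054).

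Of 21 peaks of regulators of respiratory genes, 7 were higher with AA (33.3%, against 22.7% of gene-end peaks called) and 9 with PGE2 (42.9%, against 36.6%). The Gabpa peak, 1 of these 21, is also the Atp5j peak. Tfb2m, a mitochondrial transcription factor, had 57.8 and 60.4 CPM with AA, 64.7 and 60.3 CPM with PGE2, and 48.6 and 48.4 CPM with vehicle (log2 0.28 ± 0.06 for AA, adjusted p = 0.000466; 0.37 ± 0.06 for PGE2, adjusted p = 1.61e-05). Both treatments lay above vehicle, and the calls of Tfb2m held whichever library was left out, as did those of Ogdh, Cs and Cox20. Ppargc1a, the coactivator PGC-1α, had a peak with 6.69 and 6.93 CPM with AA, 9.92 and 11.2 CPM with PGE2, and 6.97 and 6.10 CPM with vehicle, lower with AA than with PGE2 (log2 −0.63 ± 0.14, adjusted p = 0.00187; 0.0509 without AA replicate 1). Of 31 peaks of assembly factors with other symbols, 6 were higher and 1 lower with AA (22.6%), and 11 higher and 1 lower with PGE2 (38.7%). Cox20, an assembly factor of complex IV, had 64.2 and 73.0 CPM with AA, 76.5 and 80.2 CPM with PGE2, and 57.1 and 54.4 CPM with vehicle (log2 0.30 ± 0.06 for AA, adjusted p = 0.000245; 0.49 ± 0.06 for PGE2, adjusted p = 5.35e-08). The shares of these lists stand beside 14.0% with AA and 23.4% with PGE2 for the respiratory chain peaks, and 22.7% and 36.6% for gene-end peaks. The difference between lists was not tested.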

How the data were processed

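Raw read counts per consensus peak were deposited by the authors as 1 table over 6 libraries. The counting, by featureCounts 1.6.3 per the file headers, took read pairs at their 5′ ends against the consensus intervals, with no strand and with reads allowed to overlap several intervals, and the submitters' processing notes also name Trim Galore, BWA, Picard, SAMtools, MACS2 and the mm10 build. How duplicates, blacklisted regions and the transposase offset were handled is not stated in the sources used. Per the labels' protocols, the libraries were made by Omni-ATAC from 50000 sorted epithelial cells. The library totals were 12374232 to 14236985 counts, and low peaks, down to 12 counts in a library, carry wide intervals.

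Gene ends came from the RefSeq gene table of GRCm38, and the distance was taken from the peak's nearest edge. Counts were fitted with edgeR 4.0.16 in R 4.3.3 (TMM scaling, CPM as counts per 1000000 of the scaled library, filterByExpr, robust quasi-likelihood F test, all 3 groups in the fit), and p-values were adjusted by the Benjamini-Hochberg method over the 89347 peaks that passed the filter, of 90823. SE is the log2 change divided by the square root of F. The procedure was tested on simulated data. Medians and counts of lists are descriptions with no test. The alternatives were DESeq2 1.42.0, library totals, TMM on gene-end peaks, no filter, the replicate number as a block, each library left out, peak centres and nearest gene ends, and, chosen after seeing the data, listed start sites.

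The members and lists were chosen with earlier results of these data known. Described in full are, per comparison, the 6 called peaks of the widest log2 change in each direction (average log2 CPM of at least 1, groups not overlapping, 1 peak per gene), the highest peak per complex and of the assembly factors, and the tissue-type pairs. From other lists come the 2 called peaks of smallest p per direction. Other members are given by counts or, where named, were chosen after their values were seen. Each group holds 2 libraries, for which an exact permutation test cannot go below p = 0.333.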

Additional observations from a re-analysis of the deposited data

How the results depend on the processing

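With AA over vehicle (12 higher, 3 lower, median log2 0.04), DESeq2 called 0 and 0 with a median of 0.05, library totals 8 and 5 (0.01), and TMM on gene-end peaks 9 and 5 (−0.01). In that order, 4.73%, 22.8% and 22.6% of gene-end peaks and 9.97%, 31.4% and 31.6% of all peaks were called. The respiratory chain shares were 0%, 12.1% and 13.1%. With PGE2 over vehicle (25 higher, 0 lower, 0.06), DESeq2 called 10 and 0, and library totals 24 and 0 (0.01). TMM on gene-end peaks called 14 and 24 (−0.11), and the median of all peaks was then −0.17. With library totals, 22.4% of respiratory chain peaks, 37.2% of gene-end peaks and 26.5% of all peaks were called. With AA over PGE2 (1 higher, 10 lower, −0.02), DESeq2 called 0 and 2 (−0.01), library totals gave −0.01, and TMM on gene-end peaks 12 and 5 (0.10). The called shares of gene-end peaks were 1.87%, 20.2% and 19.8%, and those of all peaks 0.641%, 11.2% and 16.2%. The respiratory chain shares were 1.83%, 12.1% and 15.9%. Leaving out each library in turn gave 7 to 20 higher, 2 to 4 lower and medians of 0.04 to 0.07 with AA, 15 to 25, 0 to 1 and 0.04 to 0.08 with PGE2, and 0 to 1, 2 to 16 and −0.06 to −0.01 for AA over PGE2. The PGE2 median was 0.04 by peak centres and 0.03 by nearest gene ends. Listed start sites, chosen after seeing the data, gave 1 lower and a median of 0.05 with AA, and 0 higher and 6 lower for AA over PGE2. The cause of these shifts was not tested.

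Replicate differences correlated at 0.00469 (AA and vehicle), −0.0198 (PGE2 and vehicle) and 0.0357 (AA and PGE2). These values cannot decide whether the replicate numbers pair the libraries. In AA and vehicle the replicate differences were mostly counting noise, which gives weak correlations with or without pairing. With the replicate block, 14 peaks were higher and 3 lower with AA, and 26 and 0 with PGE2. For AA over PGE2, 1 was higher and 14 lower. The called shares were 15.9%, 24.3% and 14.0%, against 24.2%, 38.3% and 20.3% of gene-end peaks. Among all peaks they were 30.9%, 25.4% and 10.5%. Of 23 calls among the peaks described in full, 16 were lost under DESeq2, 7 under TMM on gene-end peaks, 2 under library totals and 19 without at least 1 library. Of the 11 AA over PGE2 calls, 2 were kept under DESeq2. At 2 libraries per group, the median SE of a log2 change was 0.09 for these peaks and 0.15 for those at transcript ends, and changes smaller than these lay within the error.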

Other observations

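Of 25 gene-end peaks of glycolysis genes, 9 were higher and 1 lower with AA (40.0%), and 10 higher and 3 lower with PGE2 (52.0%), with median log2 changes of 0.13 and 0.16. Among all gene-end peaks, 22.7% were called with AA and 36.6% with PGE2, and the difference was not tested. The start of Pkm, pyruvate kinase, had 69.7 and 67.8 CPM with AA, 71.9 and 81.9 CPM with PGE2, and 56.6 and 55.2 CPM with vehicle, and every treated library lay above vehicle. The peak of Pfkl, the liver form of phosphofructokinase, had 61.2 and 67.7 CPM with AA, 67.6 and 64.1 CPM with PGE2, and 54.8 and 47.4 CPM with vehicle. Ldhb, the heart form of lactate dehydrogenase, went the other way, with 4.79 and 5.14 CPM with AA, 6.03 and 6.33 CPM with PGE2, and 8.81 and 7.48 CPM with vehicle (log2 −0.72 ± 0.16 for AA, adjusted p = 0.000413 by edgeR).

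The 3 genes of the same symbols on the X chromosome each had a peak at an end, and none of these passed in any comparison. Ndufb11 had 35.3 and 35.3 CPM with AA, 34.3 and 33.6 CPM with PGE2, and 35.1 and 37.3 CPM with vehicle. Ndufa1 had 9.85 and 8.16 CPM with AA, 8.78 and 8.33 CPM with PGE2, and 8.81 and 9.99 CPM with vehicle. Cox7b had 7.18 and 6.28 CPM with AA, 6.87 and 6.40 CPM with PGE2, and 8.81 and 7.32 CPM with vehicle, a log2 change of −0.28 ± 0.15 with PGE2 (adjusted p = 0.175 by edgeR).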
